A study of Mus musculus with 86 samples.

Results

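CTCF-only regions absent from the mitotic peak lists are places in mouse embryonic stem cells where chromatin immunoprecipitation with sequencing (ChIP-seq) called CTCF in both asynchronous libraries, no asynchronous SOX2 peak was present, and neither mitotic CTCF library had a peak sharing a single base. They were selected on measured values, since the calls themselves define them: overlapping peaks of the 2 asynchronous CTCF lists were merged, merged regions with a peak in each list were kept, and each was then looked up in the mitotic CTCF and asynchronous SOX2 lists. Of 57992 such reproducible CTCF regions, 40058 (69.1%) had no SOX2 peak, and 28457 of these are the absent regions described here. They make up 71.0% of the CTCF-only regions (95% Wilson interval 70.6 to 71.5) and 49.1% of all reproducible CTCF regions. Over all reproducible CTCF regions, with or without SOX2, 66% were absent from both mitotic lists. The other CTCF-only regions were called in 1 mitotic list (3442, 8.59%) or in both (8159, 20.4%), and the regions called in both serve for comparison throughout.

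The mitotic cells were treated with nocodazole, a microtubule poison, at 100 ng/ml for 6 h and collected by shaking them off the dish. The asynchronous cells were untreated. All are 129S5/SvEvBrd embryonic stem cells grown on gelatin in medium with serum and leukemia inhibitory factor, and each combination of factor and state has 2 replicates. The antibodies were ab70303 for CTCF and AF2018 for SOX2. Of the study's 86 libraries, 8 peak lists were analysed here. Whether the replicates are separate cultures is not stated in the labels, so their spread may be technical only. The cells' identity was not checked here, since peak lists hold no expression values.

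CTCF is a zinc finger protein that binds a long DNA motif, marks insulators and, together with the cohesin ring, anchors chromatin loops. During mitosis loops and domains of interphase chromosomes are taken apart as condensin compacts the chromosomes, and many DNA-binding proteins are displaced to a degree that differs between factors and cell types. SOX2 is an HMG-box factor of the pluripotency network, and its asynchronous peaks set aside the regions where both factors were called.

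The lists put a limit on what absence means. Absent from a list is not absent from the DNA: a list holds only peaks past the caller's threshold, whose lowest −log10 q lay between 1.31 and 1.48. The mitotic CTCF lists held 20142 and 15338 peaks and the asynchronous CTCF lists 68328 and 67995. Background coverage, recovered from the deposited values as reads per 100 bp, was 3.62 and 3.77 in the mitotic CTCF libraries and 3.36 and 3.71 in the asynchronous ones. The weakest mitotic peaks, with a −log10 q under 2, had median fold enrichments of 2.17 and 2.13. Background coverage was thus similar in both states, but the caller's control and options are not known, so it need not equal sequencing depth. The mitotic lists reached folds below the asynchronous median of the absent regions (5.06 and 4.75).

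Promoters of the strongest absent regions and of the strongest regions called in both mitotic lists show the sequence feature compared first. Printed are the first 4 absent regions, ranked by strength, that lie at a gene end and hold a whole promoter of the RefSeq table (GRCm38.p6, the assembly of mm10), and after them the first 2 regions called in both. Each runs 5′ to 3′ along the gene from 250 bases before the start of transcription to 30 after it, and capitals mark a CTCF core motif, written as CC, any 3 bases, AG, any 2 bases and GGC, on either strand. The absent regions are those of Alcam (chr16:52453052-52453331, minus strand), the gene of a cell adhesion molecule, of Sbk2 (chr7:4964377-4964656, minus strand), of C1s1 (chr6:124542330-124542609, minus strand), which encodes a complement protease, and of the predicted gene Gm31024 (chr7:28168833-28169112, minus strand). The regions called in both are those of Abca14 (chr7:120203714-120203993, plus strand), an ABC transporter gene, and Med4 (chr14:73509799-73510078, plus strand), which encodes a Mediator subunit.
Alcam: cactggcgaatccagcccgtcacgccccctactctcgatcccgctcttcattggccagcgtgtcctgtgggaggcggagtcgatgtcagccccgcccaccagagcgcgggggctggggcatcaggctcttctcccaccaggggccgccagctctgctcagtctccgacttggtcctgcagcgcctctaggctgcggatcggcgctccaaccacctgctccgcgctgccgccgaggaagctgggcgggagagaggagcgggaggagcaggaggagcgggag
Sbk2: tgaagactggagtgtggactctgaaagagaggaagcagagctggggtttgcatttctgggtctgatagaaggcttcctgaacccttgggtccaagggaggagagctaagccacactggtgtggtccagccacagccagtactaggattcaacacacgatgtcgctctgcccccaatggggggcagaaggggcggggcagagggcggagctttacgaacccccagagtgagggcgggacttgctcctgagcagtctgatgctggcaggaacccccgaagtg
C1s1: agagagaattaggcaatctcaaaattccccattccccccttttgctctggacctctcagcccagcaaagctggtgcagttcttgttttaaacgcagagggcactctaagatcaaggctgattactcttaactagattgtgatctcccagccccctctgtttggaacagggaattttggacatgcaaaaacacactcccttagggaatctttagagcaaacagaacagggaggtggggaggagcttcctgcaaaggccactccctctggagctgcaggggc
Gm31024: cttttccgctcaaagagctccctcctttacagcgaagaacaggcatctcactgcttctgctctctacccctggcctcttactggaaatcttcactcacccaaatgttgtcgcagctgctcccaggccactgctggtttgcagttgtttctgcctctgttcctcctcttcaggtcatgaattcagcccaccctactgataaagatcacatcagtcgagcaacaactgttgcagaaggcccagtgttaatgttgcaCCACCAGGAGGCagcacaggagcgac
Abca14: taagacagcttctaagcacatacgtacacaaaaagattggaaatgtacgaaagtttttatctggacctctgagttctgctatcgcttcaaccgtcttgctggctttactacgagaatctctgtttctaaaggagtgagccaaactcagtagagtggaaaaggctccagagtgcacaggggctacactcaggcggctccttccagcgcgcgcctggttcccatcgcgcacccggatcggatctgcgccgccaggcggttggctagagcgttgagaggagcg
Med4: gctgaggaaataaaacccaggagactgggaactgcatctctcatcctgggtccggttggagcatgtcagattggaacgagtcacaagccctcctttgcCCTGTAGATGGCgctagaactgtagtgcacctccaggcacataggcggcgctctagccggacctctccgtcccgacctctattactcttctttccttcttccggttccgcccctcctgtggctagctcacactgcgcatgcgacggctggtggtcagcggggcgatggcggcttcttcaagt

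The Alcam region had fold enrichments (the authors' values, here and throughout) of 17.9 and 13.9 in asynchronous replicates 1 and 2, with the summit 64 bases before the start. Its promoter held 25 CpG dinucleotides and no core motif. Sbk2 had folds of 14.7 and 10.5 and C1s1 of 10.8 and 13.0, and neither promoter held the motif. Gm31024, with folds of 12.3 and 11.1, had the motif from base 255 of the window, and its centre lay 11 bp from the summit. Among the regions called in both lists, Med4 had folds of 41.0 and 20.2 with a motif from base 99, also 11 bp from its summit, while Abca14 had 31.6 and 30.3 and no motif. Each group thus holds promoters with and without the motif, and the difference lies in how often.

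Absent regions that contained a start of transcription had the CTCF core motif in their promoters less often than those called in both mitotic lists. The window for this count was the table's whole 300 bases, from 250 before to 50 after each start. The motif was present at 74 of 400 absent regions (18.5%, 95% Wilson interval 15.0 to 22.6), at 37 of 90 regions called in 1 list (41.1%, 31.5 to 51.4) and at 111 of 250 called in both (44.4%, 38.4 to 50.6). The share among all 32851 promoters of the table was 8.61%. The difference of absent regions minus regions called in both was −25.9 percentage points (Newcombe interval −33.0 to −18.6), and the intervals of the groups do not overlap. Taking regions absent from one mitotic library alone against those called in it gave −25.7 points for mitotic replicate 1 and −20.8 for replicate 2. These intervals cover counting error over regions only, and an exact permutation test over 2 mitotic libraries cannot reach 0.05, so no p is given.

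A lower motif share at absent promoters was also found among regions of like strength. Strength here is a mean percentile: the region's tallest peak was ranked by fold among all peaks of its asynchronous CTCF list, and the percentiles from both lists were averaged. Compared within classes of strength and width, the difference was −26.7 points (−35.1 to −18.3, from 146 absent regions and 246 called in both), and within classes of −log10 q it was −21.5 (−32.5 to −10.5). Among regions above the median strength of those that hold a start, 14 of 81 absent regions (17.3%) and 105 of 232 called in both (45.3%) had the motif, with median strength percentiles of 77.2 for absent regions and 90.8 for those called in both. At or below that median the shares were 60 of 319 (18.8%, 14.9 to 23.5) for absent regions and 6 of 18 (33.3%, 16.3 to 56.3) for those called in both, and these intervals overlap. Strength was not matched on either side of that median, and the weaker regions had median percentiles of 32.5 for absent regions and 57.4 for those called in both.

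**Figure D1:**
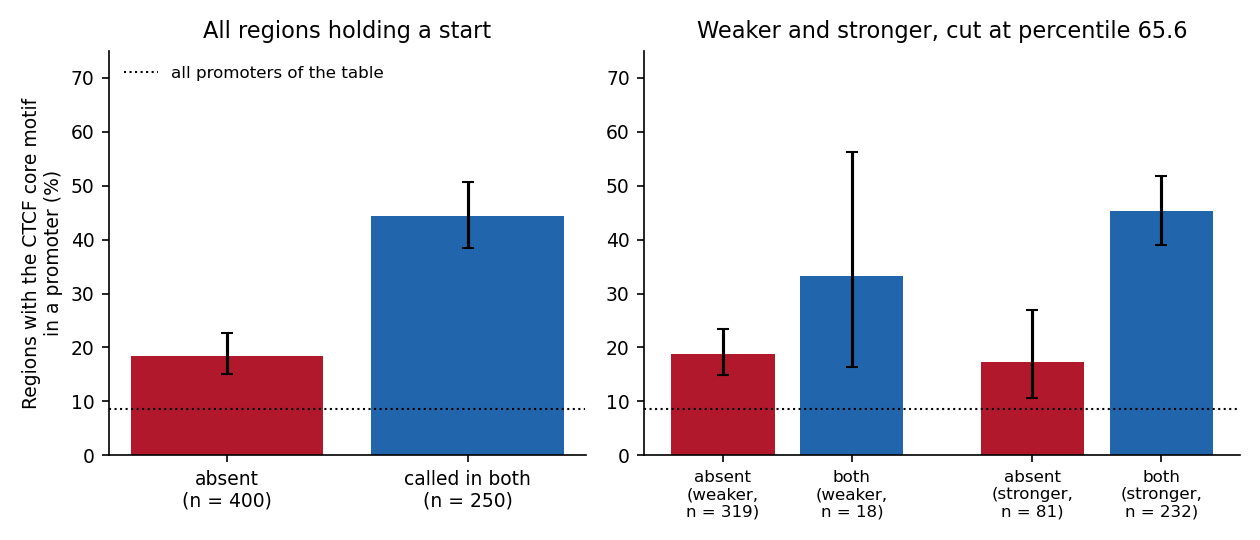
Share of regions holding a start of transcription whose promoter has the CTCF core motif (y axis, percent), for absent regions (red) and regions called in both mitotic lists (blue), over all such regions at left and split at their median strength at right. Bars start at 0, whiskers are 95% Wilson intervals, and the dotted line is the 8.61% of all promoters of the table. The absent groups sit between 17.3% and 18.8% on either side of that median, against 33.3% and 45.3% for regions called in both.

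Base composition of the promoters was close in both groups. The median number of CpG dinucleotides per 300 bases was 14.2 at absent regions and 14.0 at regions called in both, against 7 over all promoters of the table. The median GC content was 60.2% at absent regions, 58.0% at those called in both and 52.7% over the table. Among single table promoters with 55 to 65% GC the motif share was 11.9%. The absent regions were not limited to that GC range, and a region counted when any of its promoters held the motif. Their share and this value are therefore not matched in composition or unit. Where the summit itself lay within the promoter window, the motif was present at 58 of 221 absent regions (26.2%) and at 97 of 163 called in both (59.5%).

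A stricter form of the motif, CC, any 3 bases and AGGNGGC on either strand, was found at 7% of absent regions with a start and at 27.6% of those called in both, against 3.43% of all promoters. Every stricter match is also a core match. The core motif ran along the gene alone in 45 and against it alone in 22 of the 74 absent regions with a motif, and in 75 and 29 of the 111 regions called in both. The SOX motif ACAATG, on either strand, was present at 5.25% of absent regions (3.46 to 7.89) and 7.60% of those called in both (4.92 to 11.6), against 12.6% of all promoters. Both groups were chosen without an asynchronous SOX2 peak, and base composition was not matched to the table. The lower SOX motif share than in all promoters is therefore not read as a result. A match is a string of letters and not a measured binding site, and sequence outside promoters was not searched here.

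Absent regions had the weaker peaks in asynchronous cells. Their median fold enrichment was 5.06 in asynchronous replicate 1 and 4.75 in replicate 2, against 10.3 in each replicate for regions called in both mitotic lists. The middle 80% of absent regions spanned 3.11 to 9.07 in replicate 1 and 2.99 to 8.60 in replicate 2, against 6.84 to 15.4 and 6.92 to 15.0 for regions called in both. The groups overlap in both replicates. Median −log10 q was 17.2 and 15.8 at absent regions, against 71.5 in both replicates at regions called in both, and the median width was 465 bp against 839 bp. These values are descriptions, as the calls that chose the regions depend on peak height.

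**Figure D2:**
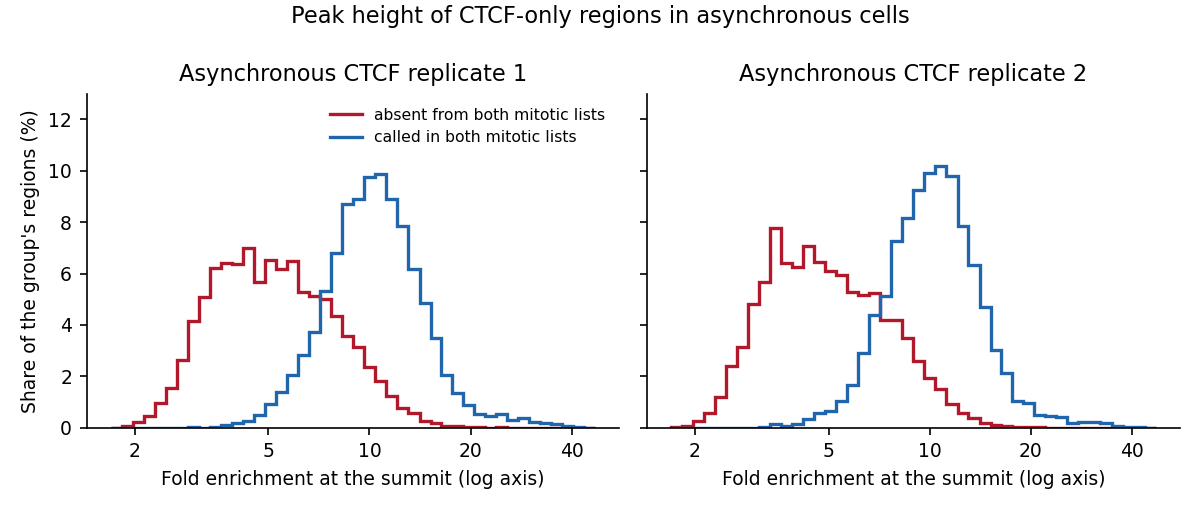
Distribution of the authors' fold enrichment at the summit (x axis, log scale) over CTCF-only regions in asynchronous replicate 1 (left) and replicate 2 (right), as the percent of each group's regions per bin. Absent regions (red, n = 28457) centre near 5, with medians of 5.06 and 4.75, and regions called in both mitotic lists (blue, n = 8159) near 10.3, with an overlap between.

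Most absent regions were well above the calling threshold in asynchronous cells. Of the absent regions, 24734 (86.9%) had a −log10 q of at least 5 in both asynchronous lists. That share was lower than the 99.3% of regions called in 1 mitotic list and the 8158 of 8159 called in both. A single peak in each list made up 98.7% of absent regions and 95.1% of those called in both. The log2 ratio of the absent regions' folds in replicate 1 over replicate 2 had a median of 0.08 and an SD of 0.41 over regions. The summits of both replicates lay within 50 bp of each other at 76.6% of absent regions and at 94.5% of those called in both, with median gaps of 26 and 16 bp. Typical absent regions, the 5 nearest to the group's median strength, were at or near Gm5544, Tgfbr3l, Kctd3, Prr23a2 and Yeats2, a gene of a histone acetyl reader. The one inside Yeats2 (16:20200819-20201569) had folds of 5.86 and 4.08, and the one at Tgfbr3l (8:4250562-4251006) 4.03 and 5.96, so single regions at this strength differ between replicates by more than the group's medians do.

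The share of absent regions fell along the whole range of asynchronous strength. In 10 classes of about 4006 CTCF-only regions each, from weakest to strongest, the absent share was 99.3%, 99.0%, 97.9%, 95.3%, 89.7%, 78.5%, 61.4%, 46.1%, 27.9% and 15.3%. The median folds of the weakest class were 3.05 and 2.93 and those of the strongest 13.2 and 12.7. Mitotic replicate 1 alone gave 99.4% in the weakest class and 16.3% in the strongest, and replicate 2 alone 99.9% and 27%. Replicate 2 missed more regions than replicate 1 in every class. Of the strongest 1% of CTCF-only regions, 24 of 401 were absent (5.99%, 4.05 to 8.75), and of the strongest 5%, 224 of 2003 (11.2%).

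**Figure D3:**
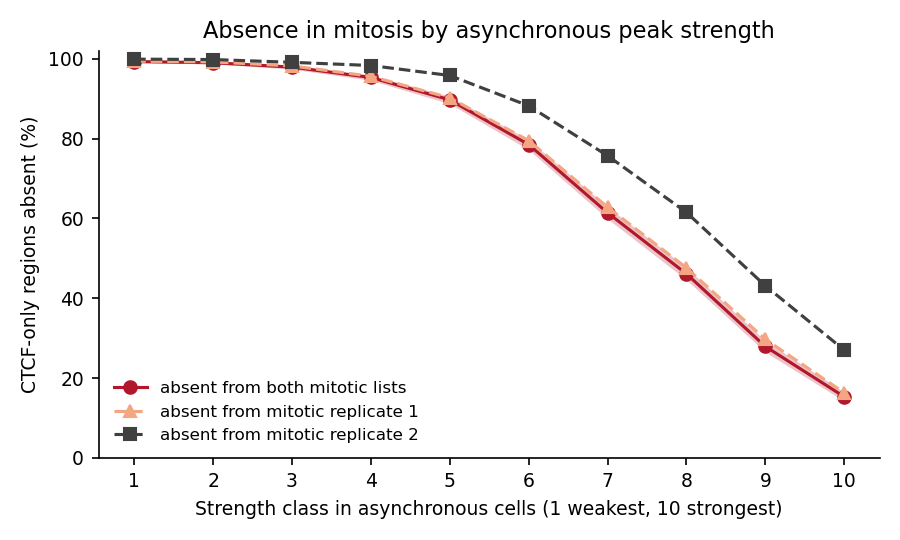
Percent of CTCF-only regions absent (y axis) in each class of asynchronous peak strength (x axis, 1 weakest to 10 strongest), for both mitotic lists together (red, shaded 95% Wilson interval) and for each mitotic replicate alone. All lines fall with strength, to 15.3% for both lists, 16.3% for replicate 1 and 27% for replicate 2 in the strongest class.

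The strongest absent region ranked 146th among all CTCF-only regions and lay inside Cfap45 (1:172528240-172529579), a gene of a ciliary axoneme protein, with folds of 24.4 and 21.2. The next (14:53654338-53655350) lay outside protein-coding genes, 580 kb from Dad1, the nearest of them, with folds of 25.4 and 20. Then came one 29.2 kb from Snx6, the gene of an endosomal sorting nexin (20.6 and 21.9), and one inside Prim2, which encodes the large subunit of DNA primase (24.4 and 18.4). The region where Pfdn2, a prefoldin subunit gene, meets Klhdc9 (1:171358183-171359161) had folds of 22.3 and 19.2. The other 5 of the strongest 10 had folds between 17 and 24.8. They lay inside Fam149b and Pnliprp2 or had Thsd4, Gm52435 on the X chromosome and Sgf29, a SAGA complex subunit gene, as the nearest protein-coding gene. All 10 exceeded in both replicates the median fold of regions called in both mitotic lists. They were picked for their height, and the medians over all absent regions were 5.06 and 4.75.

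Most absent regions lay far from any listed mitotic peak, which does not say how near their own mitotic signal came to the threshold. The median distance to the nearest mitotic CTCF peak was 25.7 kb, and 271 (0.952%) lay within 500 bp of one. Just inside the rule was a region at the end of Foxc2, a forkhead factor gene (8:121116931-121117635, folds 3.45 and 2.97), which touches a mitotic peak with a gap of 0 bp, and one at Paqr9 with a gap of 8 bp. Others were in Bin1 (16 bp), in Wwc2 (16 bp) and 4.46 kb from Polg, the mitochondrial DNA polymerase gene (35 bp). Just outside it, regions counted as called shared 8 bp with a mitotic peak in Stox2 (folds 7.73 and 7.24), 9 bp at Sema6b, 22 bp at Asmt, 55 bp at Mrps28 and 77 bp in Agap1. Asking for an overlap of 50% of the shorter interval or for summits within 100 bp moved the absent share of CTCF-only regions by less than 1 point.

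CTCF-only regions were absent more often than CTCF regions with a SOX2 peak: the share was 71.0%, against 54.8% (9834 of 17934, 54.1 to 55.6) with SOX2. By mitotic library the absent share of CTCF-only regions was 71.8% and 78.8%, a mean of 75.3% ± 4.93 (SD, n = 2), and that of CTCF regions with SOX2 was 56.1% and 65%, a mean of 60.5% ± 6.33 (SD, n = 2). The CTCF-only share was higher in each library and its lower value exceeds the higher value of the other set. Both sets were measured in the same 2 mitotic libraries, for which an exact permutation test cannot reach 0.05, and peak strength was not matched here, so the values are given without a test. No absent region had a peak in either mitotic SOX2 list, 0 of 28457. That follows closely from the rule, because only 27 of 1976 and 1 of 408 mitotic SOX2 peaks lay outside asynchronous SOX2 peaks. The median distance to an asynchronous SOX2 peak was 6.45 kb from absent regions, 8.15 kb from regions called in 1 list and 6.86 kb from regions called in both. Within 1 kb of such a peak lay 12.5%, 9.67% and 10.1% of these groups. No background distance was computed, so these values do not say whether SOX2 peaks are nearer than elsewhere.

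Inside protein-coding genes and away from their ends lay 14214 absent regions (49.9%), against 43.3% of regions called in both mitotic lists. Outside protein-coding genes lay 42.5% of absent regions, against 48.2%. These inside and outside shares were not matched for strength or taken by mitotic library. The median strength percentile was 43.9 at absent regions and 82.2 at those called in both, so mitotic calling and strength cannot be told apart in these shares. Genes of other types were not counted here. A protein-coding gene began or ended within 1 kb of 2141 absent regions (7.52%, 7.22 to 7.84), against 700 called in both (8.58%, 7.99 to 9.21). The gene-end difference of −1.06 points (−1.75 to −0.390) did not hold its direction: it was 0.245 (−0.593 to 1.08) within classes of strength, 1.66 (0.818 to 2.50) within classes of strength and width, 0.152 without asynchronous CTCF replicate 1 and −0.00291 without asynchronous CTCF replicate 2. No direction is therefore given for gene ends. The strongest absent regions there, after that of Pfdn2 and Klhdc9, were at Zfp941 (7:140805426-140806607, folds 13.9 and 19.7), Alcam, Gstt2, which encodes a glutathione transferase (21.2 and 13.2), and Arvcf, the gene of a catenin family protein (13.8 and 16). Mab21l3, Mapkapk3, Gip, Psors1c2 and Cacng6, a calcium channel subunit gene, made up the 10, with folds between 11.4 and 17.4 in the last 5.

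The summits of absent regions near starts were about evenly placed on either side. Of 1098 absent regions with a summit within 1 kb of a start, 532 (48.5%, 45.5 to 51.4) had it upstream, against 240 of 365 called in both (65.8%, 60.7 to 70.4). The difference of −17.3 points shrank to −2.50 (−11.5 to 6.52) within classes of strength, so it moves with peak strength, and mitotic calling and strength cannot be told apart here. Over all distances the median gap between summit and nearest start was 19.4 kb in both groups.

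On the X chromosome 897 of 1101 CTCF-only regions were absent (81.5%, 79.1 to 83.7), against 27555 of 38944 on autosomes (70.8%, 70.3 to 71.2). By mitotic library the shares were 81.6% and 90.9% on the X chromosome, against 71.6% and 78.5% on autosomes, and the X share exceeded that of every autosome, which ranged from 66.0% on chromosome 5 to 75.3% on chromosome 16. Peaks on the X chromosome were also lower in asynchronous cells, with median folds of 5.86 and 5.22 against 6.21 and 5.97 on autosomes. The difference of 10.7 points (8.27 to 12.9) was 0.947 (−1.13 to 3.02) within classes of strength, −2.92 (−4.95 to −0.887) within classes of strength and width and −4.53 (−6.59 to −2.47) within classes of −log10 q.

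Among the strongest 30% of CTCF-only regions, however, 72 of 150 on the X chromosome were absent (48.0%, 40.2 to 55.9), against 3505 of 11864 on autosomes (29.5%, 28.7 to 30.4). In the strongest class alone the shares were 35.7% of 42 X regions and 15.1% of 3961 autosomal regions. In the fourth to sixth classes the order was the other way, with 92.3%, 87.9% and 72.3% on the X chromosome against 95.4%, 89.8% and 78.7% on autosomes. Even within the strongest 30% the X regions had a lower median fold in asynchronous replicate 2 (9.08 against 10.3), with 10.4 against 10.5 in replicate 1. The X difference thus has no single direction across strengths.

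**Figure D4:**
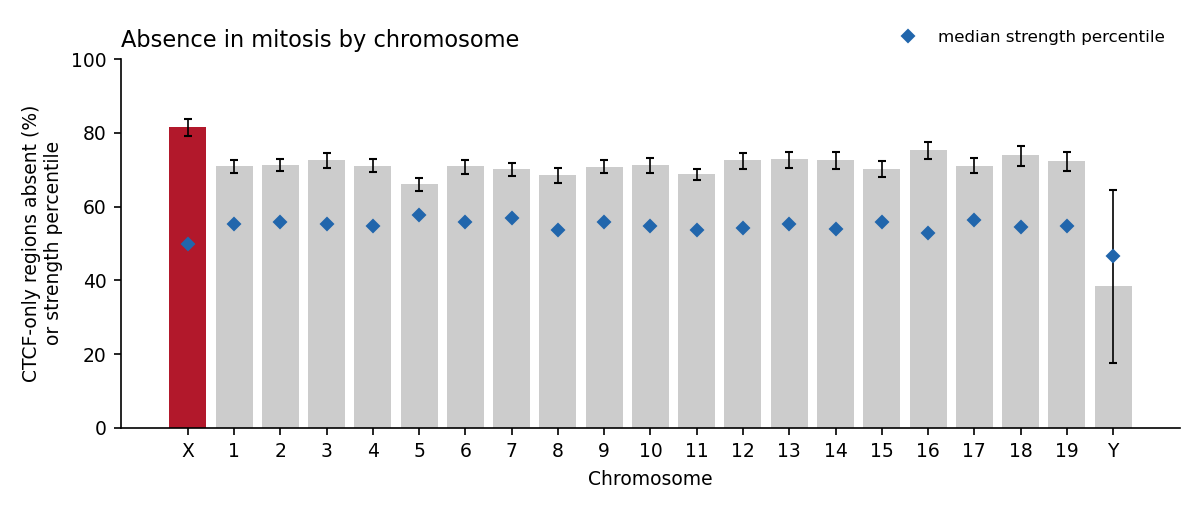
Percent of CTCF-only regions absent from both mitotic lists on each chromosome (bars from 0, whiskers 95% Wilson intervals) with the median strength percentile of the chromosome's CTCF-only regions (blue diamonds). The X chromosome (red) has the highest absent share, 81.5%, with a median strength percentile of 49.8 against 55.2 over all autosomes, and the Y chromosome has 13 regions only.

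With 71.0% of CTCF-only regions absent, unbroken runs of absent regions are frequent whatever their order, and the runs are given as a description. Taking CTCF-only regions in order, the 28457 absent ones formed 7750 unbroken runs with a median length of 2, of which 2400 were a single region and 496 had 10 or more. The longest was on the X chromosome (X:103937359-107768240) and held 42 absent regions over 3.83 Mb, from Rlim, whose product activates X inactivation, past the chromatin remodeler gene Atrx and Pgk1 to Tbx22. The run had median folds of 5.86 and 4.75, no fold above 11.5, and 4 CTCF regions with SOX2 inside it, none of them called in mitosis. The second (X:150510669-153155791) held 35 absent regions over 2.65 Mb, among genes including Huwe1, the cohesin gene Smc1a and the histone demethylase gene Kdm5c. The third (3:95324786-95939461) packed 33 into 0.615 Mb around the histone methyltransferase gene Setdb1, Arnt and Mcl1, with lower median folds of 4.47 and 3.66. It held 14 CTCF regions with SOX2, of which 6 were called. Runs of 10 or more held 44.7% of the absent regions on the X chromosome, against 23.1% of those on other chromosomes, where the absent share is lower to begin with.

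The nearest CTCF-only region was itself absent for 72.6% of absent regions (72.0 to 73.1), against 64.4% of regions called in both mitotic lists (63.3 to 65.4). Over all CTCF-only regions 71.0% were absent, so the value for absent regions is close to the overall share and the difference lies mainly in the lower value of the regions called in both. The difference of 8.18 points was 6.46 (4.88 to 8.03) within classes of strength and 6.15 (4.55 to 7.75) within classes of strength and width. It was 6.88 for mitotic replicate 1 and 6.45 for replicate 2 alone. By distance, the shares were 71.4% against 61.7% where the neighbour lay within 2 kb, and 74.7% against 67.2% at 50 to 100 kb. The neighbour's own strength was not matched. Its state is the same call that chose the absent regions, so these values are a description. Neighbouring regions count for each other, so the intervals are too narrow to the extent that regions are not independent.

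**Figure D5:**
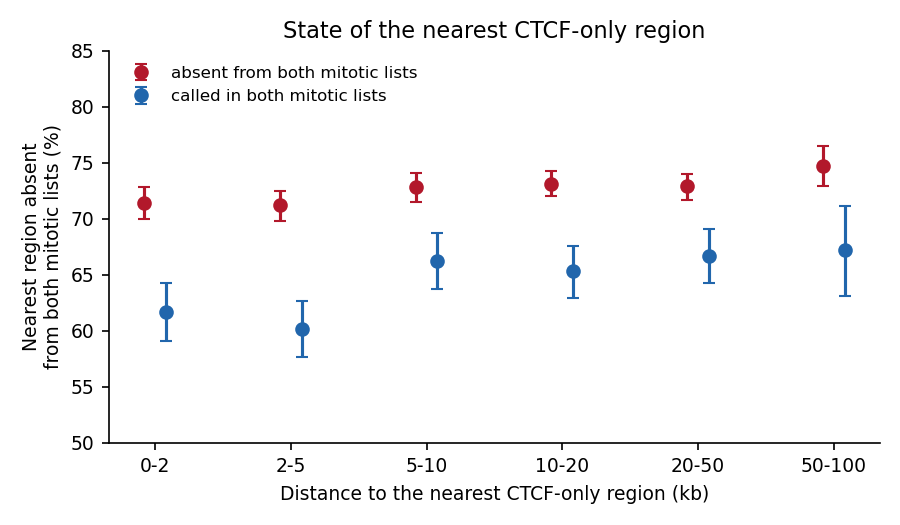
Percent of regions whose nearest CTCF-only region is absent from both mitotic lists (y axis, shown from 50 to 85%), by distance to that region (x axis, kb), for absent regions (red) and regions called in both mitotic lists (blue), with 95% Wilson intervals. Absent regions sit higher in every distance bin, at 71.2% to 74.7% against 60.2% to 67.2%.

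Another reproducible CTCF region lay within 10 kb of 57.7% of absent regions and of 62.6% of those called in both, with median distances of 7.49 and 6.26 kb. This difference of −4.88 points turned to 1.79 within classes of strength and to 6.91 within classes of strength and width, so no direction is given for it.

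Around genes of cell identity and chromosome structure the absent regions were numerous, as they were elsewhere. Each list below counts CTCF-only regions within 50 kb of its genes and is read beside the 71.0% absent over all CTCF-only regions. Near 25 pluripotency genes 82 of 100 regions were absent (82.0%, 73.3 to 88.3), and near 22 cohesin, condensin and CTCF genes 78 of 94 (83.0%, 74.1 to 89.2). The median strength percentile of the regions near these lists was 46.1 and 44.8, below the 55.2 over autosomes. Near Pou5f1, which encodes OCT4, all 11 CTCF-only regions were absent. Folds were as high as 12 and 14.9 at a region that overlaps Psors1c2 (17:35534053-35535831) and lies outside Pou5f1 itself. All 7 near Nanog were absent, with no fold in replicate 2 above 5.89, as were 7 of 8 near Sall4, and 6 of 8 near Dppa3 and 6 of 7 near Dppa4. Among the architectural genes, all 7 regions were absent near each of Nipbl, the cohesin loader gene, the condensin genes Ncaph and Ncaph2, and Cdca5, which encodes sororin. So were all 6 near Mau2, the partner of Nipbl. Other genes of the list, picked after their values were seen, had fewer: 3 of 6 were absent near Ctcf itself, 4 of 8 near its germline paralog Ctcfl and 4 of 7 near the condensin gene Smc4.

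At the X inactivation center 20 of 22 CTCF-only regions were absent (90.9%, 72.2 to 97.5), none was called in both mitotic lists, and the chromosome's own share was 81.5%. Overlapping genes share regions there: Tsx had 8 of 9 absent, Tsix 7 of 8, and Xist and Jpx 6 of 7 each. The strongest absent region near Xist and Tsix (X:103468992-103469404) had folds of 8.79 and 6.73, and all 5 regions near Chic1 were absent. Near imprinted genes 34 of 49 were absent (69.4%, 55.5 to 80.5), among them all 3 near Igf2, with folds as high as 11.5 and 9.86 (7:142671985-142672627), all 5 near Snrpn and 4 of 5 near Meg3.

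Regions near mitotic kinase and checkpoint genes were absent in 93 of 115 cases (80.9%, 72.7 to 87.0), with all 9 near Espl1, the separase gene, all 8 near Wee1 and 11 of 13 near Mad1l1. Polycomb and trithorax genes had 107 of 140 absent (76.4%, 68.8 to 82.7), including all 8 near Jarid2, 9 of 10 near Ezh1 and 9 of 11 near Suz12. Near neural regulators the count was 33 of 43 (76.7%, 62.3 to 86.8), with all 6 near Six3, where 1 region had folds of 19.3 and 9.38, but 7 of 13 near Pax7. Ribosomal protein genes had 211 of 291 absent (72.5%, 67.1 to 77.3).

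Besides the imprinted list, those below 71.0% were the Hox cluster genes, with 13 of 22 absent (59.1%, 38.7 to 76.7), and the mesoderm and endoderm regulators, with 37 of 63 (58.7%, 46.4 to 70.0). Around Hoxd10 to Hoxd13, which share the same 5 regions, 3 were absent and 2 were called in both. Among the endoderm and mesoderm genes, 6 of 7 regions near Gata4 were absent and 6 of 8 near Tbx6. The regions near Hox genes were the strongest of all lists, with a median strength percentile of 70.2. The intervals cover counting error only, and those of 5 of the 10 lists include 71.0%. Above it lay the intervals of the cohesin, X inactivation center, pluripotency and mitotic kinase lists, and below it that of the mesoderm and endoderm list. Strength was not matched in these counts.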

How the data were processed

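The authors deposited a separate narrowPeak list for each replicate. The tools named are MACS2 2.1.1.20160309, BWA 0.7.17, CASAVA 1.4 and SAMtools, with mm10, per the submitters' processing notes. Their options, any filters and the control used for calling were not given in the sources used here. In the deposited lists the fold enrichment is a ratio at the peak summit, and the −log10 q-value and −log10 p-value are those of that summit. The deposited score column was not used. Background coverage was recovered from fold and −log10 p. It is the lowest value among the peaks solved, divided by the list's shortest peak width.

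Regions were merged, classified by shared bases (at least 1 bp) and compared by shares with Wilson and Newcombe intervals, without tests over regions, since regions are not replicates. Differences within classes of strength, width or −log10 q were weighted over 10 classes of each (Mantel-Haenszel). Genes (49943, of which 21887 are protein-coding) and 32851 promoters came from RefSeq tables on GRCm38.p6. The gene table has no strand, so gene ends are either boundary, and starts are those of the promoter table, which covers 79.9% of coding genes and none on chromosome 18.

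The members, the 10 gene lists and the results were chosen with earlier results of these data known. Named are the 10 strongest absent regions, the 5 nearest to the median strength, the 5 nearest to a mitotic peak, the 5 called by the fewest shared bases, the 10 strongest at gene ends, the 3 longest runs and, from the 5 genes per list with the most absent regions within 50 kb, examples picked by their counts. Outside those 5 genes, Ctcf, Ctcfl and Smc4 were named after their values were seen. Nespas of the imprinted list had no match. The printed promoters, the upstream side and the nearest-neighbour results were chosen after their values were seen. The alternatives tried were a −log10 q or fold of at least 5, other overlaps and windows, regions of either asynchronous library, mitotic lists of equal length, leaving out each library, and matched strength. Code was tested on simulated data and run with Python 3.11.15, numpy 2.4.6, pandas 2.3.3, scipy 1.17.1 and matplotlib 3.10.9.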

Additional observations from a re-analysis of the deposited data

How the results depend on the processing

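The absent share of CTCF-only regions (71.0%) was 77.5% over regions of either asynchronous library and 68.6% to 78.8% with each library left out in turn. Comparing lists of the same number (a replicate block, paired by label only, as the deviations of same-numbered libraries correlated by 0.02 over 8159 regions) gave 78.6%.

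Differences in percentage points, absent regions minus regions called in both mitotic lists, depended on strength. For gene ends (−1.06) they were −1.76 at a −log10 q of at least 5, −4.56 at a fold of at least 5, −0.783 with summits within 100 bp, 0.367 over regions of either asynchronous library, −0.737 with mitotic lists of equal length, 1.66 at equal strength and width, 0.245 at equal strength, 2.39 at equal −log10 q, −1.34 and −0.651 for windows of 500 and 2500 bp, −1.37 for starts within 1 kb, and −1.47 to 0.152 with a library left out. For another CTCF region within 10 kb (−4.88) they were −9.34 at a fold of at least 5, −2.53 over regions of either library, 6.91 at equal strength and width, 1.79 at equal strength, 7.79 at equal −log10 q, and −5.29 to −3.06 with a library left out, with −3.06 without mitotic CTCF replicate 2 and −3.23 without asynchronous CTCF replicate 2. For the upstream side of starts (−17.3) they were −16.8, −13.8, −18.2, −25.0 and −16.5 under the first 5 settings above, −1.46, −2.50 and −2.23 under the matched ones, and −24.3 to −15.1 with a library left out.

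The promoter motif difference (−25.9) stayed negative in every setting tried: −20.6 for the stricter motif, −33.3 with the summit in the promoter window, −32.0 with that and 5 strength classes, −21.5 at equal −log10 q, and −28.5 to −20.8 with a library left out. The nearest-neighbour difference (8.18) stayed positive, at 6.07 with a fold of at least 5, 6.42 over regions of either library, 7.14 with mitotic lists of equal length, 6.15, 6.46 and 6.90 at equal strength and width, equal strength and equal −log10 q, and 6.45 to 8.30 with a library left out. The X chromosome minus autosomes (10.7) was 15.7 at a fold of at least 5, 7.44 over regions of either library, −2.92 at equal strength and width, 0.947 at equal strength, −4.53 at equal −log10 q, 18.5 in the strongest 30%, and 8.38 to 12.6 with a library left out. The cause of these shifts was not tested. Regions under a list's threshold were not measured, and 2 libraries a group set the limit of every comparison.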
